A study of Mus musculus with 16 samples.

Results

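Cold-inducible and heat shock genes were followed in the dorsal hippocampus of mice that had swum in a water maze or had stayed in the home cage, with or without caffeine in the drinking water. The set holds 10 genes, found in the deposited table by matching Ensembl identifiers to GENCODE symbols, out of 35328 genes in all. They are the cold-inducible genes Cirbp and Rbm3 and the heat shock genes Hspa1a, Hspa1b, Hspa8, Hsph1, Dnajb1, Hsp90aa1, Hspb1 and Hspe1. All 10 were present in the table and passed the filter on low counts, as did 17830 genes in total. They were described because the mice of the learning groups had been immersed in water below body temperature, so the genes could serve as a readout of temperature, but body temperature itself was not analysed here.

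The 16 C57Bl6/J mice fell into 4 groups of 4, by condition (home cage or learning) and by drink (water or caffeine). Caffeine was dissolved in the drinking water at 0.3 g/L and given for 2 weeks, starting when the mice were 8 to 9 weeks old, and control mice drank water over the same time. Learning mice were trained for 3 days in the Morris water maze, a pool in which a mouse learns to find a hidden platform, and their tissue was taken 1 hour after the last trial. Home cage mice were not trained. Swimming, handling and learning therefore came together in every learning mouse, and cannot be told apart. Replicate numbers are the animals' own numbers, and 1 library was made from each animal.

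RNA-binding proteins of the CIRBP and RBM3 family accumulate in mammalian cells at mild hypothermia, bind transcripts and influence their splicing, polyadenylation and translation. The mRNAs of both proteins fall when cells are warmed, and Cirbp mRNA is rhythmic in many tissues because body temperature is. Heat shock proteins work on the opposite side: when proteins unfold, heat shock factor HSF1 is released from its chaperones, binds heat shock elements in promoters and raises the transcription of the inducible chaperones. Hspa1a and Hspa1b encode the inducible HSP70, Dnajb1 encodes the J-domain partner (HSP40) that passes clients to it, and Hsph1 encodes HSP110, which exchanges its nucleotide. Hspa8 encodes the constitutive HSP70, Hsp90aa1 the inducible HSP90, Hspb1 the small heat shock protein HSP27, and Hspe1 the mitochondrial chaperonin HSP10.

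Promoter sequences were read for the members from RefSeq windows of the GRCm38.p6 build, over the 250 bases before a transcription start. RefSeq windows were at hand for 7 of the 10 members and not for Rbm3, Hspa8 and Hsp90aa1. The windows of Cirbp and Dnajb1 are printed whole because these are the members that passed the test in each learning comparison below, and capitals mark the mild cold response element TCCCCGCC. Cirbp lies at chr10:80165985-80172786 on the plus strand and its window, chr10:80167589-80167838, precedes a RefSeq start inside the GENCODE gene. Dnajb1 lies at chr8:83608193-83612653 on the plus strand and its window spans chr8:83607925-83608174.
Cirbp: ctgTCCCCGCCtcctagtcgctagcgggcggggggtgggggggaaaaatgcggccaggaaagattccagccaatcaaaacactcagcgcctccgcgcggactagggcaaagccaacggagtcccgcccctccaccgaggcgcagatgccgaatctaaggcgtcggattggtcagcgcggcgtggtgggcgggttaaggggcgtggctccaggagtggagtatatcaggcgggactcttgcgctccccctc
Dnajb1: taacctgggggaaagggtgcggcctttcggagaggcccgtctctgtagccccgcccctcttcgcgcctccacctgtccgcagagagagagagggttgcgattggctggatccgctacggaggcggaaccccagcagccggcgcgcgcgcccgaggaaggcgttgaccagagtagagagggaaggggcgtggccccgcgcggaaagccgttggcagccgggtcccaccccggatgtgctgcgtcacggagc

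The element stood in Cirbp at positions -247 to -240 from the start, and not in the other Cirbp window at hand. It was searched on both strands and was held by 4.64% of 32851 promoter windows of the same length. The same letters lay on the other strand of Hspa1a and Hspa1b, at -137 to -130. No heat shock element was matched in the Dnajb1 windows, which says only that the letters searched are not in them.

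Stretches of 60 bases are shown for the heat shock genes in which a heat shock element was found, with its letters in capitals. The element was searched in 2 units (GAANNTTC or TTCNNGAA) and in 3 units, where NNGAA follows the former or NNTTC the latter, on both strands, and a match in 3 units also holds matches in 2 units. Hspa1a (chr17:34972228-34972287, minus strand) and Hspb1 (chr5:135887795-135887854, plus strand) come first, followed by Hsph1 (chr5:149636337-149636396, minus strand) and Hspe1 (chr1:55088042-55088101, plus strand).
Hspa1a: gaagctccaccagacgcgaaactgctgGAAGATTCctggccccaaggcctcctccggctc
Hspb1: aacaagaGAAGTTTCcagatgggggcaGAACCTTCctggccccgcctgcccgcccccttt
Hsph1: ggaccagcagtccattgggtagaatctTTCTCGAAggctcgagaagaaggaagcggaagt
Hspe1: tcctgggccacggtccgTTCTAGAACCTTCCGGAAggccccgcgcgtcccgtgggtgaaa

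Hspa1b (chr17:34959310-34959369, minus strand) held the same 60 bases as Hspa1a, and the 250-base windows of the pair differed at 3 positions. The 2-unit element was held by 12.8% of all windows of this length, and the 3-unit element, found in Hspe1 alone among the members with a window, by 0.466%. A match describes letters and not a bound site.

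Library totals ran from 23078094 to 49949281 counts, with a median of 36437284.5. The median total was 30203502.5 in home cage water, 34736321.5 in home cage caffeine, 37367856.5 in learning water and 42497897.5 in learning caffeine. Depth thus differed between the conditions and was higher in learning mice on the whole. All 8 choroid plexus markers passed the test as lower in learning mice (averaged comparison, below), and their summed level was 302 to 2345 CPM in home cage water, 192 to 503 CPM in home cage caffeine and 114 to 429 CPM in the 8 learning mice. The share of mitochondrial counts was 3.46 to 4.49% in home cage mice and 3.23 to 3.59% in learning mice, and its highest value belonged to home cage caffeine replicate 17. Fos, an immediate early gene of neuronal activity, was at 1.59 to 6.42 CPM in home cage and 11.6 to 18.2 CPM in learning mice. Markers of pyramidal neurons (Neurod6, Slc17a7 and 4 more) summed to 5885 to 7244 CPM in all libraries, and none of the 6 was at 0.

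Levels are given as CPM, counts scaled to the TMM-adjusted library total, and between genes only as CPM per kilobase of exon. On that scale Hspa8 (49.2 ± 3.05, SD, n = 16) and Hsph1 (47.0 ± 4.40) were highest and did not differ beyond their spread. Hsp90aa1 (33.5 ± 3.06) and Cirbp (29.2 ± 6.28) followed with overlapping spreads, and then Dnajb1 (15.3 ± 2.29), Hspe1 (9.24 ± 0.932) and Rbm3 (6.27 ± 0.669). The inducible HSP70 genes Hspa1b (2.69 ± 0.573) and Hspa1a (1.99 ± 0.475) were low, and Hspb1 (0.657 ± 0.207) was lowest. In counts, Hspb1 rested on 11 to 54 reads a library, Hspa1a on 118 to 381 and Cirbp on 1908 to 3944, so Hspb1 is the least precise of the 10.

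**Figure D1:**
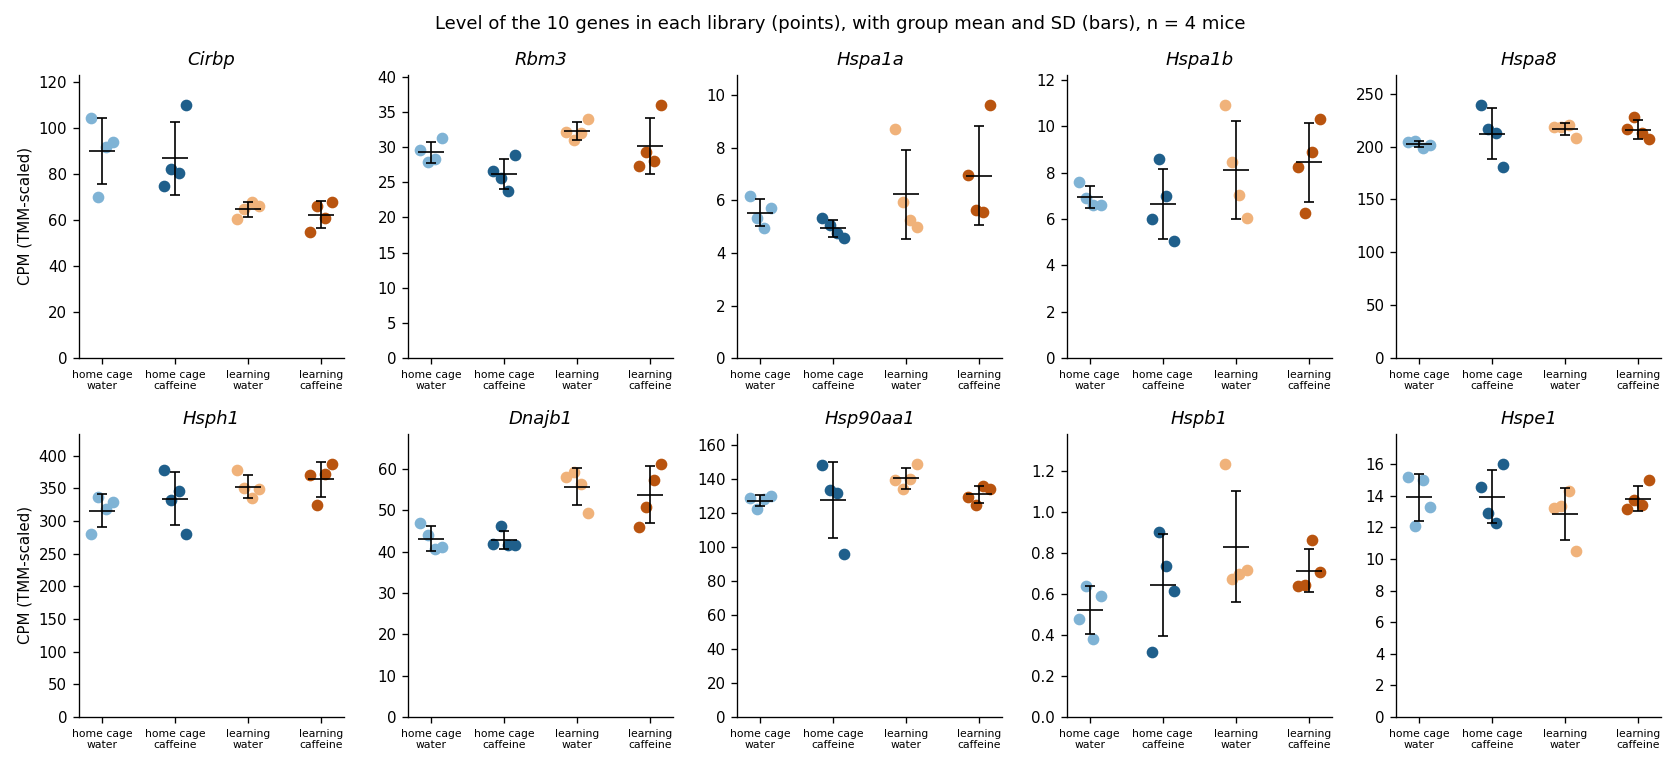
Level of each of the 10 genes in CPM (vertical axes start at 0) in every library, by group, with points for mice and bars for the group mean and SD (n = 4). Cirbp was lower in all 8 learning mice (54.9 to 68.0 CPM) than in all 8 home cage mice (70.1 to 110 CPM), whereas most Dnajb1 values of learning mice lay above those of home cage mice.

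After learning Cirbp fell and Dnajb1 rose under both treatments, and the other 8 members did not pass the test under either. Genes are called here at an adjusted p under 0.1 (edgeR quasi-likelihood test, Benjamini-Hochberg adjustment over the 17830 genes). By that rule 1 member was called higher and 1 lower under water, where 0.639% of all genes were called higher and 0.331% lower. Under caffeine 1 was higher and 1 lower, against 3.16% and 2.13% of all genes. In the averaged comparison 2 were higher (Dnajb1 and Rbm3) and 1 lower (Cirbp), against 7.81% and 6.71%. The median log2 fold change of the 10 members was 0.15, 0.16 and 0.16 in these comparisons, and that of all genes tested was -0.01 in each.

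Under water the values of 4 members lay wholly above the home cage values (Hspa8, Dnajb1, Hsp90aa1 and Hspb1) and those of 1 wholly below, where 3.87% and 3.12% of all genes did so. For Hspa8 the separation was narrow, with home cage water at 199 to 205 CPM and learning water at 208 to 220 CPM. Under caffeine 1 member (Hspa1a) was wholly above and 1 wholly below, against 5.64% and 5.24%. Over all 8 against 8 mice Cirbp was wholly below, as 0.365% of all genes were, and no member was wholly above, against 0.953%.

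The first question was whether swimming and learning changed the cold-inducible genes. Cirbp was lower after learning under both treatments, and Rbm3 was not lower under either. In home cage water mice Cirbp was at 104, 70.1, 91.8 and 94.1 CPM in replicates 6, 8, 11 and 20, and in learning water mice at 60.4, 64.7, 68.0 and 66.1 CPM in replicates 24, 33, 36 and 38. Every learning value lay below every home cage value, and the 4 learning mice were close together (SD 3.25 CPM, against 14.4 CPM in the home cage). The log2 fold change was -0.48 (95% interval -0.72 to -0.23, edgeR quasi-likelihood adjusted p = 0.0901), so that the level fell by 28.1%.

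Under caffeine, Cirbp was at 74.6, 82.2, 80.5 and 110 CPM in home cage replicates 2, 9, 14 and 17, and at 54.9, 66.0, 60.9 and 67.8 CPM in learning replicates 22, 27, 30 and 40. Again the groups did not overlap, and home cage replicate 17 was the highest of all 16 mice. The log2 fold change was -0.48 (95% interval -0.72 to -0.23, edgeR adjusted p = 0.0402). The responses under caffeine and water differed by -0.0018 (95% interval -0.35 to 0.35, edgeR adjusted p = 0.99997 for the difference). Averaged over both treatments, Cirbp fell by 0.48 on the log2 scale (standard error 0.08, edgeR adjusted p = 0.00242), and 8 of 8 learning mice were below 8 of 8 home cage mice. The exact two-sided permutation test within treatment gave p = 0.000408, the smallest that its 4900 assignments can give.

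The averaged call of Cirbp held in each of the 16 fits that left out 1 library (adjusted p 0.000887 to 0.00775). The call under water was kept in 4 of those fits, the ones without home cage water replicate 8, home cage caffeine replicates 2 or 17, or learning caffeine replicate 40, and the adjusted p ranged from 0.0308 to 0.249. The call under caffeine was lost without home cage caffeine replicate 17, learning caffeine replicate 22 or learning caffeine replicate 30, with an adjusted p of at most 0.124. In bulk tissue, fewer cells that express a gene and less mRNA per cell cannot be told apart. Choroid plexus markers and the mitochondrial share, both higher on average in home cage mice, moved with Cirbp between the conditions. The home cage water mouse with the highest choroid plexus level (replicate 20, 2345 CPM) had 94.1 CPM of Cirbp, and the next (replicate 8, 1149 CPM) had the lowest home cage Cirbp, 70.1 CPM. In home cage water, Cirbp and the mitochondrial share had the same order, with shares of 3.89, 3.84, 3.58 and 3.55% in replicates 6, 20, 11 and 8. In home cage caffeine the share was 4.49% in replicate 17, the highest of all mice in Cirbp and in this share. It was 3.78, 3.46 and 3.47% in replicates 2, 9 and 14, of which replicate 2 had the least Cirbp. The order did not hold in learning mice. In learning water, replicate 24 had the highest share (3.44%) and the least Cirbp (60.4 CPM). In learning caffeine, replicate 27 had the highest share (3.59%), and replicate 40 (3.41%) had the most Cirbp (67.8 CPM). Without replicate 17 the averaged call of Cirbp remained, and the part of choroid plexus and of the mitochondrial share in the result was not tested further. Cirbp transcripts are rich in G and C (57.4% of bases, summed over its annotated transcripts), and with a correction for gene length and GC content the averaged log2 fold change was -0.41 (edgeR adjusted p = 0.00227).

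Rbm3 did not follow Cirbp. It was at 29.5, 27.8, 28.3 and 31.3 CPM in home cage water, at 26.6, 25.6, 23.8 and 28.9 CPM in home cage caffeine, at 32.1, 31.0, 32.02 and 34.0 CPM in learning water and at 27.4, 29.4, 27.9 and 35.96 CPM in learning caffeine mice. Learning values tended to the upper end under each treatment, but the groups overlapped. The log2 fold change was 0.14 under water (95% interval -0.03 to 0.31, edgeR adjusted p = 0.512) and 0.20 under caffeine (0.03 to 0.37, edgeR adjusted p = 0.192). Averaged over both it was 0.17 (standard error 0.06, edgeR adjusted p = 0.0722), a call in the direction opposite to Cirbp. That call was lost without home cage caffeine replicate 9 or 14, learning water replicate 38 or learning caffeine replicate 40 (adjusted p at most 0.118). It was also lost after the length and GC correction (0.15, edgeR adjusted p = 0.126) and after thinning all libraries to the smallest (0.16, edgeR adjusted p = 0.116). An antisense gene, Rbm3os, overlaps Rbm3 with 6 to 16 counts a library, and whether reads were counted by strand is not given in the sources used here.

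Because the members moved apart, the ratio of Cirbp to Rbm3 counts was taken within each library, a measure that no scaling between libraries enters and that was chosen after the values had been seen. The log2 ratio was 1.61 ± 0.21 in home cage water, 1.71 ± 0.18 in home cage caffeine, 1.005 ± 0.084 in learning water and 1.05 ± 0.12 in learning caffeine (SD, n = 4). Home cage mice ran from 1.33 to 1.93 and learning mice from 0.91 to 1.17, with no overlap. The averaged difference was -0.63, given without a test because the ratio was formed from the changes already described.

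Within groups the cold-inducible genes nonetheless varied together. The Pearson r of their log2 CPM over the 16 libraries was -0.20, but 0.57 for deviations from the group means, and 0.44 without home cage caffeine replicate 17. This was not particular to the pair, as Cirbp had a within-group r of 0.58 with the heat shock gene Hspe1 (0.43 without that replicate). Cirbp varied inversely with Hsph1 (r = -0.81 over 16 libraries, -0.76 within groups, -0.60 within groups without that replicate). This was the Cirbp pair with the largest r in size, named after the values had been seen. Its r was -0.87 in home cage mice and -0.44 in learning mice. Within groups the r of Cirbp was also negative with Hspa1a (-0.07), Hspa1b (-0.28), Hspa8 (-0.61), Hsp90aa1 (-0.52) and Hspb1 (-0.09), but positive with Dnajb1 (0.14) and Hspe1. Much of this rested on home cage caffeine replicate 17. Without it the r was 0.02 for Hspa1a, -0.02 for Hspa1b, -0.21 for Hspa8 and 0.16 for Hsp90aa1. It was then -0.13 for Hspb1 and 0.27 for Dnajb1. These values are descriptions over 16 libraries that differ in group and in depth.

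**Figure D2:**
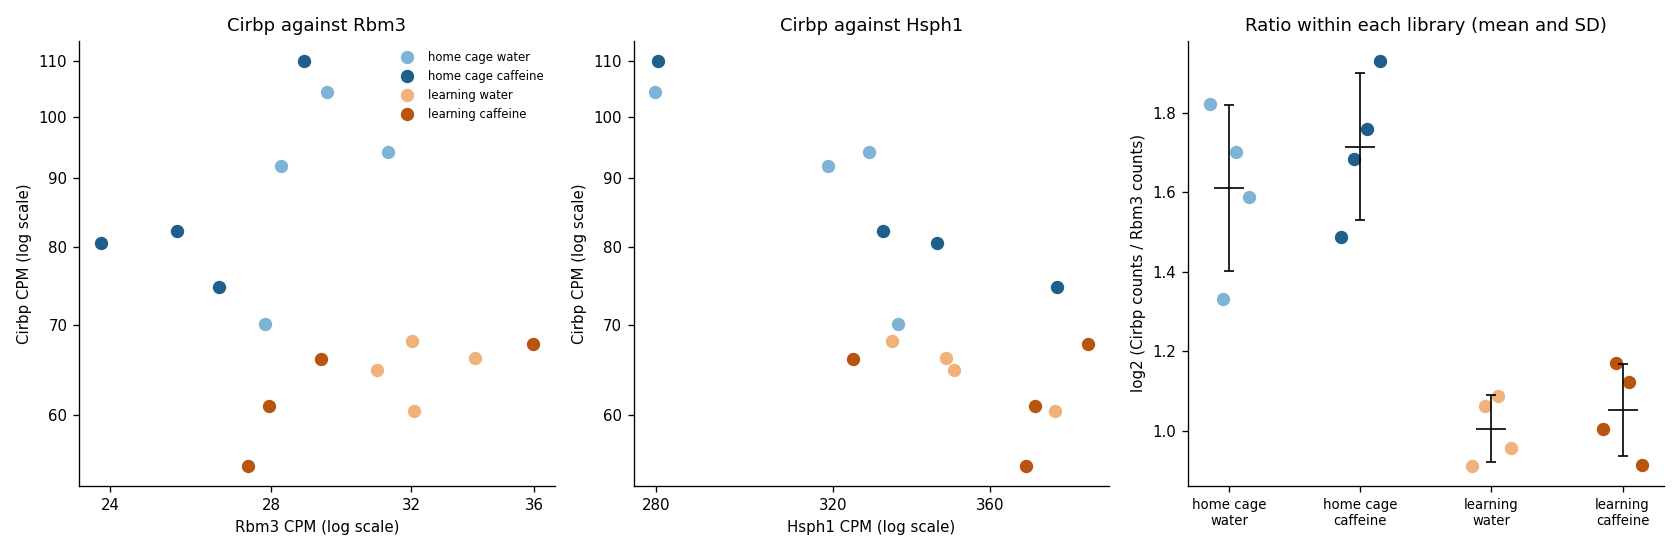
Cirbp CPM against Rbm3 CPM and against Hsph1 CPM (logarithmic axes, 1 point per mouse, coloured by group), and the log2 ratio of Cirbp to Rbm3 counts in each mouse with the group mean and SD (n = 4). The ratio lay between 1.33 and 1.93 in home cage mice and between 0.91 and 1.17 in learning mice.

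The next question was whether the heat shock genes changed. Dnajb1 rose after learning under both treatments, and no other heat shock member passed the test. In home cage water mice Dnajb1 was at 47.0, 44.1, 40.6 and 41.1 CPM, and in learning water mice at 58.0, 59.3, 56.5 and 49.3 CPM. The groups did not overlap, although learning replicate 38 (49.3 CPM) came within a few CPM of home cage replicate 6. The log2 fold change was 0.37 (95% interval 0.20 to 0.54, edgeR adjusted p = 0.0641), which is 29.2% higher.

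In home cage caffeine mice Dnajb1 was at 41.8, 46.2, 41.7 and 41.6 CPM, and in learning caffeine mice at 46.0, 50.8, 57.4 and 61.3 CPM. Learning replicate 22 (46.0 CPM) lay just under home cage replicate 9 (46.2 CPM), so the groups overlapped by that pair. The log2 fold change was 0.33 (95% interval 0.16 to 0.51, edgeR adjusted p = 0.0409), and 0.35 averaged over both treatments (standard error 0.06, edgeR adjusted p = 0.00191, exact permutation p = 0.000816). The averaged call held in all 16 fits without 1 library (adjusted p 0.000483 to 0.00516). The call under water was lost without home cage water replicates 11 or 20 or learning water replicates 33 or 36 (adjusted p up to 0.193). Under caffeine it was lost without home cage caffeine replicate 17 or learning caffeine replicates 30 or 40 (adjusted p up to 0.123).

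The inducible HSP70 genes were low and spread widely after learning. Hspa1a was at 6.15, 5.32, 4.96 and 5.70 CPM in home cage water, 5.33, 5.08, 4.77 and 4.58 CPM in home cage caffeine, 8.72, 5.95, 5.26 and 4.98 CPM in learning water and 6.96, 5.65, 5.56 and 9.63 CPM in learning caffeine mice. The highest values came from single mice, learning water replicate 24 and learning caffeine replicate 40, and the caffeine groups did not overlap. Its log2 fold change was 0.18 under water (edgeR adjusted p = 0.728), 0.49 under caffeine (95% interval 0.11 to 0.87, edgeR adjusted p = 0.158) and 0.33 averaged (0.06 to 0.60, edgeR adjusted p = 0.114). DESeq2 put Hspa1a past the threshold under caffeine (0.50, DESeq2 adjusted p = 0.0848) and averaged (0.34, DESeq2 adjusted p = 0.0694). The averaged value also passed in edgeR with all genes of at least 1 count kept (adjusted p = 0.0837), after thinning (adjusted p = 0.0991) and after the length and GC correction (adjusted p = 0.0810). With libraries left out, it passed without learning water replicate 38 or learning caffeine replicates 27 or 30, and the value under caffeine passed without learning water replicate 24 (lowest adjusted p 0.0789 and 0.0796).

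Hspa1b was at 5.05 to 8.57 CPM in the 8 home cage and 6.03 to 10.9 CPM in the 8 learning mice, and unlike Hspa1a its caffeine groups overlapped (0.35, edgeR adjusted p = 0.303, DESeq2 adjusted p = 0.253). Its averaged log2 fold change was 0.29 (95% interval 0.02 to 0.57, edgeR adjusted p = 0.163), past the threshold without home cage caffeine replicate 9 or learning caffeine replicate 27 (lowest 0.0829), and its r with Hspa1a over the 16 libraries was 0.79. The pair are near-identical copies in tandem on chromosome 17 and only uniquely aligned reads had been kept, so how reads were divided between them is uncertain. Gm20481, which overlaps Hspa1a on the opposite strand, had 0 to 5 counts a library.

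Hsph1 averaged 325 ± 32.8 CPM in home cage and 358 ± 22.1 CPM in learning mice (SD, n = 8), a log2 fold change of 0.14 (95% interval 0.02 to 0.26, edgeR adjusted p = 0.136). It was past the threshold without home cage water replicate 8, home cage caffeine replicate 2 or learning caffeine replicate 27 (lowest edgeR adjusted p = 0.0467). Hspa8 (0.06, 95% interval -0.03 to 0.16, edgeR adjusted p = 0.415) and Hsp90aa1 (0.09, -0.04 to 0.22, edgeR adjusted p = 0.388) had intervals that hold 0, although Hspa8 passed without home cage caffeine replicate 2 (edgeR adjusted p = 0.0951). Both were lowest in home cage caffeine replicate 17, at 181 and 96.1 CPM against 199 to 239 and 122 to 149 CPM in the other home cage mice. Without that mouse the log2 fold changes under caffeine became -0.04 for Hspa8 and -0.07 for Hsp90aa1.

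Hspb1 was at 0.315 to 0.905 CPM in home cage and 0.640 to 1.24 CPM in learning mice, with an averaged log2 fold change of 0.44 (95% interval 0.00 to 0.87, edgeR adjusted p = 0.193). Hspe1, the mitochondrial member, was at 12.1 to 16.02 CPM in home cage and 10.5 to 14.98 CPM in learning mice (-0.06, 95% interval -0.22 to 0.09, edgeR adjusted p = 0.628). Its neighbour Hspd1 overlaps it on the opposite strand at 55.3 to 67.1 CPM.

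**Figure D3:**
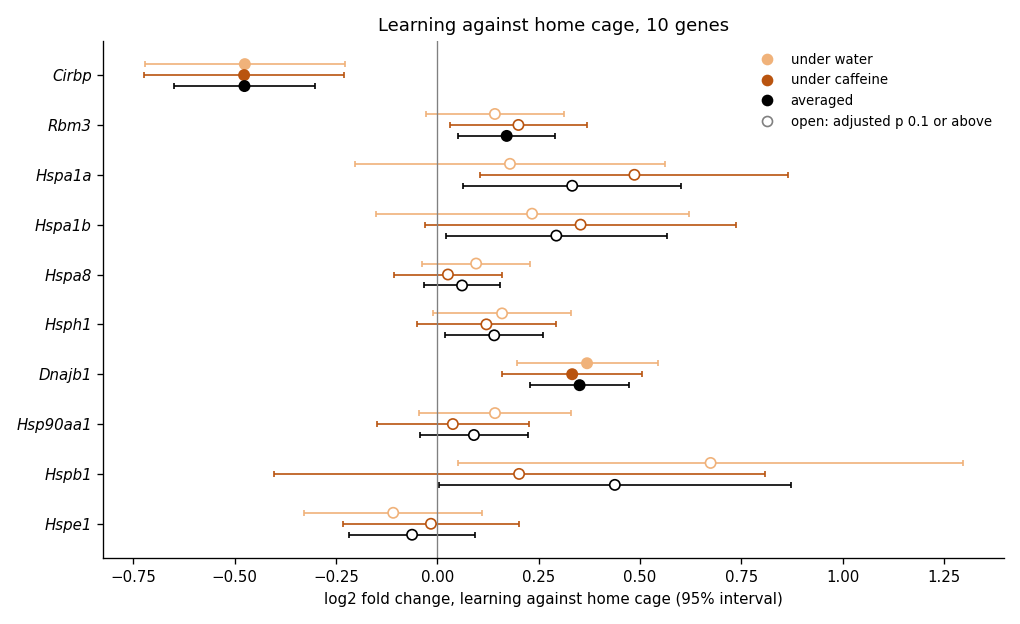
Log2 fold change of each of the 10 genes, learning against home cage, under water, under caffeine and averaged, with 95% intervals from edgeR. Filled points have an adjusted p under 0.1, which Cirbp (lower) and Dnajb1 (higher) had in each of the 3 comparisons and Rbm3 (higher) in the averaged one.

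Caffeine against water was the remaining question. None of the 10 members was called in the home cage, after learning or averaged over both, and 0% of all genes were called by edgeR in these comparisons. DESeq2 called none of the 10 either. Of 33354 genes, it called 2 higher and 17 lower in the home cage, 1 and 5 after learning and 3 and 13 averaged. At an unadjusted edgeR p under 0.05 the count of members was 0 in the home cage, 0 after learning and 1 averaged, where 3.57%, 3.93% and 4.07% of all genes had such a p. The same count for learning against home cage was 3 under water, 4 under caffeine and 7 averaged, beside 11.8%, 18.8% and 25.5% of all genes. The 1 gene for caffeine was Rbm3, at 29.2 ± 1.55 CPM in home cage water against 26.2 ± 2.13 CPM in home cage caffeine, and at 32.3 ± 1.26 against 30.2 ± 3.95 CPM after learning (SD, n = 4). Its averaged log2 fold change was -0.13 (95% interval -0.25 to -0.01, edgeR adjusted p = 0.985). The averaged changes were -0.05 for Cirbp (95% interval -0.23 to 0.12), -0.03 for Dnajb1 (-0.15 to 0.09) and -0.01 for Hspa1a (-0.28 to 0.26). Over the 10 members the point values ran from -0.13 to 0.06.

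The difference between the learning responses under caffeine and water was called for none of the 10 by edgeR or DESeq2, with 0 at an unadjusted edgeR p under 0.05. Of all genes, 0% were called by edgeR and 3.63% had such a p, and DESeq2 called 1 higher and 5 lower of 33354. The difference was -0.04 for Dnajb1 (95% interval -0.28 to 0.21), 0.06 for Rbm3 (-0.18 to 0.30) and 0.31 for Hspa1a (-0.23 to 0.85). The largest in size was that of Hspb1, at -0.47 (-1.34 to 0.40). For Hspa1a the interval thus covers responses under caffeine from somewhat weaker to much stronger than under water.

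Genes of the same pathways were then read from lists of 149 genes, of which 144 were tested (Hspb7, Lin28a, Trpv1, Trpm5 and Trpm8 were too low). In the averaged comparison 28 were called higher and 7 lower, or 19.4% and 4.86%, under caffeine 14 and 3, and under water 3 and 1. Of all genes tested, 7.81% were called higher and 6.71% lower in the averaged comparison, 3.16% and 2.13% under caffeine and 0.639% and 0.331% under water, so the averaged share called lower was below that of all genes. The endoplasmic reticulum and core clock lists supplied 17 of the 28 higher. These counts describe the lists and were not tested as sets.

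None of the 5 heat shock factors and their binding protein was called, and the smallest p was that of Hsf4 (-0.19, edgeR adjusted p = 0.308). Of the 13 J-domain co-chaperones, the partners that load HSP70, 3 were higher and none lower. Dnajb5, an HSP40 relative of Dnajb1, was at 140 to 171 CPM in home cage and 197 to 240 CPM in learning mice with no overlap (0.43, edgeR adjusted p = 6.7e-05), followed by Dnajb4 (0.19) and Dnaja4 (0.16). Hspa13 was the 1 of 8 further HSP70 and HSP110 genes called (0.17, edgeR adjusted p = 0.0482), and Ahsa2, a relative of the HSP90 activator AHA1, the 1 of 16 HSP90 genes (0.25, edgeR adjusted p = 0.0141). Bag4 was the 1 of 6 nucleotide exchange factors (0.17).

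Chordc1, a chaperone partner of HSP90 and a target of heat shock factor, was at 83.0 to 108 CPM in home cage and 104 to 124 CPM in learning mice (0.26, edgeR adjusted p = 0.0122). Of 10 further heat shock factor targets it was the 1 called higher. Of 6 further small heat shock genes tested, Hspb3 alone passed, and it was lower (-0.95, edgeR adjusted p = 0.00724) at 0.376 to 0.994 CPM in home cage and 0.261 to 0.586 CPM in learning mice. No mitochondrial chaperone or protease of 10 was called, and of 14 chaperonin and prefoldin genes Cct4 was higher (0.09) and Pfdn5 (-0.19) and Pfdn1 (-0.15) lower.

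The chaperones of the endoplasmic reticulum, which respond to unfolded protein in that compartment, were called higher in 8 of 14 and lower in none, beside 7.81% and 6.71% of all genes. Hspa5, the reticulum's HSP70 (BiP), was at 174 to 283 CPM in home cage and 257 to 362 CPM in learning mice (0.46, edgeR adjusted p = 0.00936). Hyou1 rose by 0.22 and Pdia4 by 0.33.

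On the cold side, CLK kinases phosphorylate splicing factors in a temperature-dependent way, and 2 of 4 were higher, Clk1 (0.28, edgeR adjusted p = 0.00604) and Clk4 (0.17, edgeR adjusted p = 0.0860). None of 7 cold shock domain genes was called, and of 7 relatives of RBMX and the hnRNPs Rbm14 was (0.26, edgeR adjusted p = 0.00799). Of 8 thermosensitive TRP channels tested, Trpv4 was called, lower by 1.11 in log2 with 2.16 to 8.78 CPM in home cage and 1.09 to 2.61 CPM in learning mice. Trpv4 is also made by choroid plexus, whose 8 markers were all lower in learning mice, and the part of that tissue in its change was not tested.

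Core clock genes are given because Cirbp is rhythmic and its protein affects clock transcripts. Of 16, 9 were higher and 2 lower. Per2 was at 28.5 to 37.0 CPM in home cage and 55.4 to 75.6 CPM in learning mice (0.94, edgeR adjusted p = 6.47e-07) and Per1 at 50.6 to 64.7 and 75.6 to 101 CPM (0.58, edgeR adjusted p = 7.51e-05). Arntl was lower (-0.35, edgeR adjusted p = 0.00283). Per1 and Per2 are also induced by neuronal activity and by glucocorticoids.

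**Figure D4:**
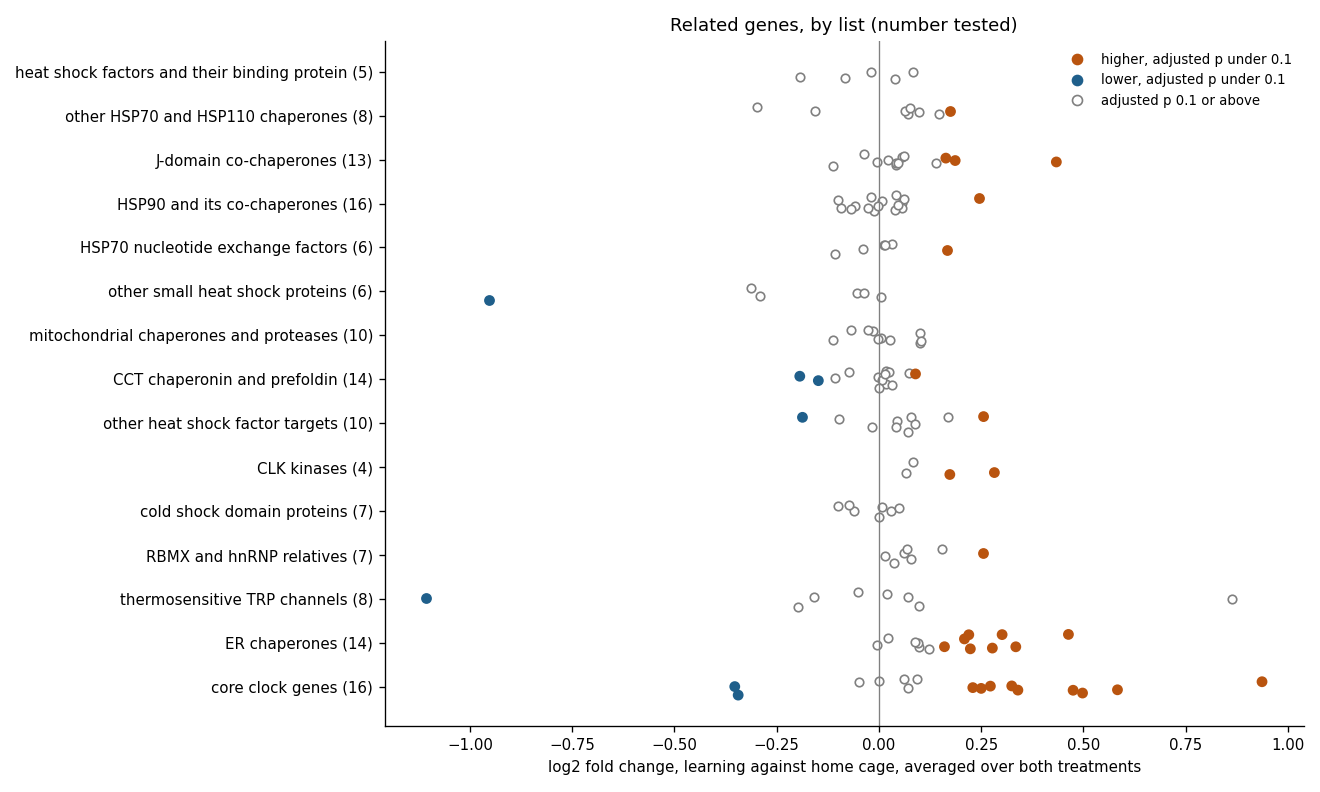
Log2 fold change of 144 related genes, learning against home cage averaged over both treatments, by list, with the number tested in brackets and 1 point per gene. Filled points have an adjusted p under 0.1. The endoplasmic reticulum list has 8 filled points, all higher, the core clock list 9 higher and 2 lower, and the heat shock factors none.

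Members were then compared with 13370 genes that are not members, related genes included, whose mean log2 CPM was 1 or more. The genes whose log2 CPM over the 16 libraries was most like that of Cirbp were Sugp1 (Pearson r = 0.94), Lrrc29 (0.92) and 3000002C10Rik (0.91). For Dnajb1 they were Lrrc8c (0.92), E2f6 (0.91) and Rab23 (0.91), and for Rbm3 they were Mettl6 (0.87), Orc2 (0.87) and Zcchc2 (0.83). For Hspa1a they were Sesn2 (0.82), Daam1 (0.81) and Dph2 (0.80), and for Hsph1 they were Madd (0.91), Tmem33 (0.88) and Rnf182 (0.88). The best matches of the others were Ick for Hspa1b (0.87), Strip2 for Hspa8 (0.86), Tgoln1 for Hsp90aa1 (0.92), Adamts9 for Hspb1 (0.84) and Atp6v0c for Hspe1 (0.87). The match of rank 3 for Hspa8 was Hsp90ab1 (0.84), a gene of the HSP90 list. A high r over libraries that hold a shared difference between conditions says nothing of shared control.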

How the data were processed

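Dorsal hippocampus of 16 mice was profiled by RNA-Seq. Values deposited by the authors are raw counts of reads per Ensembl gene, whole numbers without normalization. Per the study's methods and the processing notes, stranded single-end mRNA libraries (base calls by bcl2fastq 2.17.1.14) were mapped to mm10 with STAR and Bowtie 2, and uniquely aligned reads were counted with HTSeq 0.6.1p1 in union mode. Whether strand was used in counting is not given in the sources used here. Unique alignment limits counts of near-identical genes.

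Tests used edgeR 4.0.16 in R 4.3.3: TMM scaling, filterByExpr, a mean per group over all 16 libraries, the quasi-likelihood test, and Benjamini-Hochberg adjustment over 17830 genes, called at an adjusted p under 0.1. DESeq2 1.42.0 was an alternative. Intervals are at 95%. The tests were checked on simulated counts for learning against home cage under caffeine, with changes put into known genes. There edgeR recovered 18 of 64 genes changed by 0.3 in log2, 42 of 71 changed by 0.5 and 53 of 65 changed by 1. It made 9 false calls. DESeq2 recovered 23, 47 and 56 of the same genes, with 22 false calls. Most changes of 0.3 were thus missed in that comparison, so a member that was not called may still have changed by that much. The library totals (23078094 to 49949281) limit low genes most. Exact permutation tests had 4900 assignments, within treatment. Gene names, positions and exon lengths came from GENCODE M21, in which 35247 of 35328 genes matched, and promoters from RefSeq. The members and lists were chosen with earlier results of these data known. Named related genes are those of smallest p in each list (up to 3 where called), and those most like a member by r, with 1 called gene not reported here. Markers of neurons, thalamus, glia, vessels, meninges, ependyma and blood were also read, with 0 to 3 of each list called lower after learning and none higher, besides choroid plexus.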

Additional observations from a re-analysis of the deposited data

Results flagged for a closer look

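Among 40 groups of 4 mice (10 members in 4 groups), 2 held a mouse that stood apart from the rest, its gap to the nearest value, as a share of the group's range, being above Dixon's 95% critical value. Chance flags about 1 in 20 such groups. Dnajb1 was at 46.2 CPM in home cage caffeine replicate 9, against 41.6 to 41.8 CPM in the other 3. Hspb1 was at 1.24 CPM in learning water replicate 24, against 0.674 to 0.717 CPM in the other 3.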

How the results depend on the processing

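The averaged calls of Cirbp and Dnajb1 held under every alternative run, which were DESeq2 size factors, DESeq2, other count filters, robust estimation, thinning, length and GC correction, an adjusted p under 0.05 and each library left out. Under water, edgeR on the compared groups alone and thinning each left 1 member called, Dnajb1, and an adjusted p under 0.05 left 0. Over all genes these settings called 66 higher and 19 lower of 17050, 87 and 45 of 16784, and 50 and 20 of 17830. With single libraries left out, members called ranged from 0 to 2 under water, from 0 to 3 under caffeine and from 2 to 6 averaged. Those fits tested 17972 to 18063 genes. Of these, 30 to 217 were called higher under water, 249 to 729 under caffeine and 1037 to 1905 averaged. Those called lower numbered 5 to 95, 125 to 534 and 708 to 1436. Averaged, the highest member counts came without home cage caffeine replicate 2 (5, with Hspa8 and Hsph1) and learning caffeine replicate 27 (6, with Hspa1a, Hspa1b and Hsph1). Over all genes those fits called 1648 higher and 983 lower, and 1513 higher and 1220 lower, against 1393 and 1197 in the main fit. Related genes called ranged from 3 to 7 under water and from 9 to 24 under caffeine, where DESeq2 called 29 and an adjusted p under 0.05 left 10. Over all genes under caffeine, DESeq2 called 982 higher and 587 lower of 33354. The main fit called 563 and 379 of 17830, and an adjusted p under 0.05 left 293 and 156. Averaged, that threshold left 23 related genes, and 819 higher and 565 lower over all genes. Among related genes named in the text, averaged calls were lost under some alternatives for Bag4, Cct4, Clk4, Pfdn1 and Pfdn5 (4, 8, 10, 16 and 2 of 24), and the cause was not tested.

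Directions changed in 94 of 1720 member values recomputed, for values of up to 0.230 in size and none of them called. With the length and GC correction Hspe1 was at 0.086 under caffeine and 0.023 averaged, and the Cirbp response difference at 0.024. Thinning gave 0.00039 for Dnajb1 in caffeine against water in the home cage, 0.065 for averaged Hspa1a and 0.0083 for the Cirbp difference, which was 0.0026 with DESeq2 size factors and 0.0030 with DESeq2. The cause was not tested. Leaving out 1 library, learning responses ranged from -0.029 to 0.27 for Hspa1a under water, and under caffeine from -0.040 to 0.11 for Hspa8, -0.073 to 0.14 for Hsp90aa1, -0.033 to 0.38 for Hspb1 and -0.069 to 0.061 for Hspe1. Caffeine against water ranged from -0.19 to 0.026 for Cirbp and -0.046 to 0.029 for Dnajb1 in the home cage, and after learning from -0.090 to 0.0066 for Cirbp, -0.11 to 0.024 for Dnajb1, -0.044 to 0.36 for Hspa1a and -0.34 to 0.043 for Hspb1. Averaged, it ranged from -0.063 to 0.0062 for Dnajb1 and -0.10 to 0.099 for Hspa1a. The response difference ranged from -0.078 to 0.13 for Cirbp, -0.096 to 0.036 for Dnajb1 and -0.029 to 0.11 for Rbm3.

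No paired analysis was possible because the replicate numbers are those of single animals and no number is shared between groups. With 4 mice per group and 11 to 54 counts a library, Hspb1 limits the precision most.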
